A study of Homo sapiens with 24 samples.

Results

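POM121 was knocked down by siRNA in DU145DR cells, and transcript levels in the 4 knockdown libraries were compared with 2 control libraries across all genes measured. DU145DR is an aggressive subline of DU145, a human prostate cancer cell line from ATCC, and it is used as a model of docetaxel resistance. The comparison takes 12 of the 24 samples of the series, which are 6 of its 12 libraries, each read on lanes 1 and 2 and averaged here. Libraries 1A and 2A are the controls, 1B and 2B received siPOM121 construct 1 (s59623) and 1C and 2C received siPOM121 construct 2 (s19145). The control arm is named only "Control" in the labels, so what those cells received is not known, and the labels write knockout for what was an siRNA treatment. Both constructs were given equal weight, with 2 libraries per group. No time after transfection is given, nothing says that the libraries came from separate cultures, and the p-values below measure only the spread between these libraries.

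POM121 is an integral membrane nucleoporin that helps anchor the nuclear pore complex in the nuclear envelope, the gate through which transcription factors enter the nucleus and RNA leaves it. In prostate cancer cells POM121 has been linked to the import of transcription factors including MYC and E2F1. MYC is known for driving ribosome production, the stepwise assembly in the nucleolus of ribosomal RNA with proteins, guided by small nucleolar RNAs and assembly factors. FOXO transcription factors, which growth factor signalling keeps out of the nucleus, and mTORC1, which couples nutrients to translation, bear on the same balance of growth and rest.

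RNA was poly(A)-selected, and levels are given in FPKM, which scales fragments by transcript length and by the size of the library. Values at or under the floor of 1 FPKM were deposited as 0. Between 11885 and 12125 symbols per sample exceeded the floor, the read depth is unknown, and the unstranded libraries cannot separate overlapping genes. Of 11 markers of DU145 epithelium 9 were above the floor in all 12 samples, led by VIM, KRT18, CD44, CAV1, EGFR and KRT8, while CDH1 and KRT19 were listed at 0 throughout. All 12 markers of fibroblasts, endothelium and blood were listed at 0. Library 1A was lowest and 1C highest in 3 short RNAs without poly(A) tails, with RNA5-8S5 at 471 FPKM in 1A, 5043 in 1C and 716 to 1969 in the other 4 libraries. RMRP ran from 18.9 to 116 FPKM and RPPH1 from 3.53 to 47.2, in the same 2 libraries. The part of this in other results was not tested, and counts without each library are given where they move.

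The targeted transcript was lower in every knockdown library. POM121 stood at 21.6 and 21.3 FPKM in 1A and 2A, 13.4 and 13.5 in 1B and 2B and 12.5 and 13.2 in 1C and 2C. The 2 groups did not overlap (-0.71 ± 0.040, adjusted p = 4.59e-05, as log2 fold change ± SE). POM121C, a near-identical paralog whose reads cannot be fully separated from those of POM121, stood at 16.7 and 17.1 FPKM in the controls, 10.6 and 10.4 with construct 1 and 9.77 and 10.5 with construct 2 (-0.71 ± 0.045, adjusted p = 6.6e-05). Part of the transcript remained with either construct, and the difference between constructs (2 minus 1) in POM121 was -0.069 (95% interval -0.18 to 0.038, adjusted p = 0.695).

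A large share of the transcriptome differed by small amounts. Of 12065 symbols tested with limma over all 6 libraries, 4722 (39.1%) differed from control at an adjusted p under 0.05, with 2647 higher (21.9%) and 2075 lower (17.2%). The median log2 fold change was 0.29 among the higher and -0.21 among the lower symbols, and 22 rose and 7 fell by at least 2-fold. The 22 rises include DOLK and COL1A1, which have control samples listed at 0. None of the 7 falls met the rule used below to rank fold changes. That rule asks for at least 5 FPKM, no sample at 0 and groups that do not overlap. All 4 knockdown libraries lay above both controls for 3697 symbols (30.6%) and below both for 2987 (24.8%). Taken alone, construct 1 differed from control at 4118 symbols (34.1%) and construct 2 at 3708 (30.7%), against the same control libraries. The count was 2959 without library 1A, 2979 without 2A and 4140 without 1C. Leaving out a control removes 1 of 2 control libraries, whereas leaving out 1C removes 1 of 4 knockdown libraries. These counts thus cannot show which library bears more on the calls. In bulk RNA, fewer cells that express a gene and less of its RNA per cell cannot be told apart.

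Direction varied with expression level. Among symbols with a mean of 2 to 5 FPKM, 26.7% were higher and 7.76% lower, while among those of 20 to 100 FPKM 18.9% were higher and 26.7% lower. Above 100 FPKM the shares were 21.6% and 20.3%. Lowered symbols were thus mostly of middle and high abundance, and raised ones were found at every level. Values near the floor are truncated, which limits falls among the lowest symbols.

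**Figure D1:**
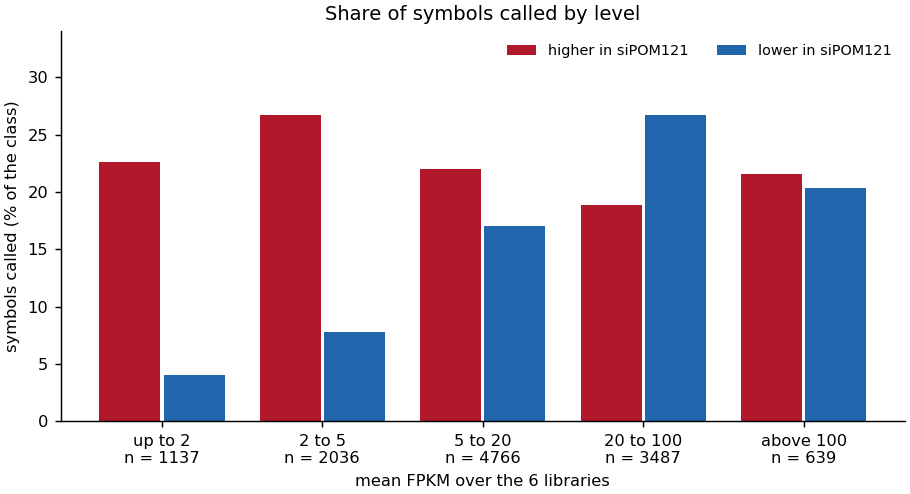
Percentage of tested symbols called higher (red) or lower (blue) in siPOM121 libraries, by class of mean FPKM over the 6 libraries; n is the number of symbols. Lower calls are 4.05% of symbols up to 2 FPKM and 26.7% of those from 20 to 100 FPKM.

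Ribosome biogenesis factors fell together. Of 45 tested members of the small subunit processome, the particle that folds and cleaves the precursor of the small subunit RNA, 37 fell and none rose, with a median log2 fold change of -0.29 against 0.02 over all symbols. Of 48 large subunit assembly factors 43 fell and none rose (median -0.29). RNA polymerase I and its factors, which transcribe the ribosomal RNA genes, had 10 of 15 lower and none higher (median -0.24). Of 21 members of the RNA polymerase III list 11 fell and 1 rose, and of 19 proteins of the small nucleolar ribonucleoproteins 12 fell and none rose (medians -0.16 and -0.22). The counts of lowered members were 37 to 38 for the processome and 36 to 41 for the large subunit factors when any 1 library was left out, and 7 for polymerase III without 2A, where none rose.

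The named assembly factors showed the same separation library by library. NOP16, a nucleolar protein of large subunit assembly, had 53.4 and 52 FPKM in 1A and 2A, 31 and 32.1 in 1B and 2B and 34.7 and 35.1 in 1C and 2C (-0.67 ± 0.033, adjusted p = 3.27e-05). RRP12, which takes part in late maturation of both subunits, had 44 and 42.3 FPKM in controls and 27.2 to 27.5 in knockdown libraries (-0.66 ± 0.033, adjusted p = 3.27e-05). For UTP20, a large scaffold of the processome, the values were 15 and 15.9 FPKM in the controls, 9.6 and 10.6 with construct 1 and 9.12 and 9.76 with construct 2 (-0.66 ± 0.056, adjusted p = 0.000154). In each of these the highest knockdown library lay well under the lower control. NOL6 (-0.63 ± 0.031), EMG1, a pseudouridine methyltransferase (-0.62 ± 0.046), and NLE1 (-0.62 ± 0.059) were also among the 25 lowest fold changes that were ranked. That ranking took only called symbols of at least 5 FPKM, above the floor in all samples, with groups that do not overlap. DKC1, the pseudouridine synthase of the box H/ACA particles, had 81.7 and 76.7 FPKM in controls and 52.1 to 58 in knockdown libraries (-0.51 ± 0.037, adjusted p = 9.66e-05), and the box C/D proteins NOP56 and NOP58 had -0.40 ± 0.031 and -0.32 ± 0.036. UBTF, the polymerase I promoter factor, had 28.5 and 27.3 FPKM in controls and 20.5 to 22.2 in knockdown libraries (-0.39 ± 0.037, adjusted p = 0.000233), and the catalytic subunit POLR1A 15.1 and 14.6 FPKM in controls and 10.4 to 11.5 in knockdown libraries (-0.43 ± 0.046, adjusted p = 0.00034). Nucleolin, encoded by NCL and among the most abundant nucleolar proteins, had 393 and 401 FPKM in controls and 305 to 336 in knockdown libraries (-0.32 ± 0.030, adjusted p = 0.000226).

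Host genes of small nucleolar RNAs, whose introns release the guide RNAs, were lower as well. Of 18 tested 12 fell and none rose, and the median of -0.33 was the lowest of the 40 gene lists. SNHG17 had 23.1 and 20.8 FPKM in 1A and 2A, 12.7 and 13.8 in 1B and 2B and 12.4 and 13.7 in 1C and 2C (-0.74 ± 0.064, adjusted p = 0.000168). SNHG12 had 26.7 and 28.3 FPKM in controls and 17.2 to 18.6 in knockdown libraries (-0.62 ± 0.039, adjusted p = 6.6e-05), and SNHG15 had 64.5 and 61.7 FPKM in controls and 40.9 to 45.5 in knockdown libraries (-0.56 ± 0.036, adjusted p = 6.68e-05). SNHG1, which hosts a cluster of box C/D RNAs, had 75.7 and 77.5 FPKM in controls and 53.5 to 55.5 in knockdown libraries (-0.50 ± 0.031, adjusted p = 6.6e-05). The spliced hosts are polyadenylated and their values do not give the level of the guide RNAs.

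The letters CACGTG, the E-box bound by MYC with MAX and by other basic helix-loop-helix factors, were searched in the 250 bases before each gene's first listed start in RefSeq (GRCh38.p14). A start was found by symbol for 8910 of the 12065 symbols tested, and alternative starts were not searched. The motif is its own reverse complement, so 1 search covers both strands, and each match to TCACGTGA is also a match to it. It was present in 9.16% of all promoters, 11.1% of those of lowered symbols and 7.71% of those of raised symbols. Among the polymerase I, processome, large subunit and small nucleolar particle lists it was in 12 of 103 promoters (11.7%), against 9.16% of all promoters. Of these 12 genes 11 fell (median -0.29), and of the 91 without it 71 fell (median -0.27). The 3 with the largest falls are shown, each 5′ to 3′ up to the base before the start, with the motif in capitals:
UTP20 (chr12:101279855-101280104, plus strand): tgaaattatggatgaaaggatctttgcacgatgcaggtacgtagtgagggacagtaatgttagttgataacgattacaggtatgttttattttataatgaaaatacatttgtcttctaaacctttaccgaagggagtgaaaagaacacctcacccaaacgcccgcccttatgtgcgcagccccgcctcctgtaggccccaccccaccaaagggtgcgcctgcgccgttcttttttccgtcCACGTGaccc
IMP4 (chr2:130342647-130342896, plus strand): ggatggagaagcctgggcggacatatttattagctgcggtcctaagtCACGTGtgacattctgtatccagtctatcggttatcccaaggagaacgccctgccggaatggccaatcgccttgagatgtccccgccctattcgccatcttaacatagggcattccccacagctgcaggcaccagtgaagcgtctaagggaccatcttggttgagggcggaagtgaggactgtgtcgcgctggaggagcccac
EBNA1BP2 (chr1:43172571-43172820, minus strand): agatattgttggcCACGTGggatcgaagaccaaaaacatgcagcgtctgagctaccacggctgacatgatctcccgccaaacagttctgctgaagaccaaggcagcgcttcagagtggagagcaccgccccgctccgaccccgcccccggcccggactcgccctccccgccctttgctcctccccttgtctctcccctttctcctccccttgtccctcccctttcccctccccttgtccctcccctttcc
IMP4, a processome protein, had 61.1 and 54.7 FPKM in controls and 40.9 to 43.6 in knockdown libraries (-0.46 ± 0.046, adjusted p = 0.000269), and EBNA1BP2, a large subunit assembly factor, 353 and 345 FPKM in controls and 249.6 to 277 in knockdown libraries (-0.42 ± 0.031, adjusted p = 9.9e-05). The motif begins 10 bases before the start in UTP20, 203 before in IMP4 and 237 before in EBNA1BP2. A match describes these letters and does not show binding.

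Another 4 motifs were counted in the same windows. TGACTCA, the AP-1 site, was in 2.32% of all promoters, 2.96% of the lowered and 1.95% of the raised. CCAAT was in 35.4%, 33.3% and 37.7%, and GCGGGAA, a form of the E2F site, in 9.18%, 10.5% and 8.07%. TCACGTGA was in 1.82%, 1.74% and 1.29%.

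Genes that supply translation and nucleotides were also lower. Of 22 aminoacyl-tRNA synthetase genes, whose products charge tRNAs, 17 fell and 1 rose (median -0.15), with 11 lower without library 1A and none higher without 2A or 2C. Of 38 translation initiation factors and their regulators 22 fell and 1 rose (median -0.15). The exception was EIF4EBP2, a repressor of cap-dependent initiation, at 17.2 and 18 FPKM in controls and 21.3 to 23.9 in knockdown libraries (0.37 ± 0.042, adjusted p = 0.000426), while its relative EIF4EBP1 was lower (-0.25 ± 0.029). All 14 tested subunits of the CCT chaperonin and prefoldin, which fold actin and tubulin, had negative fold changes, and 11 of them fell (median -0.16). Of 26 enzymes of purine and pyrimidine synthesis 15 fell and none rose (median -0.13). CTPS1, which makes CTP, had 54.9 and 54.1 FPKM in the controls, 34.5 and 35.4 with construct 1 and 38.4 and 36.7 with construct 2 (-0.59 ± 0.034, adjusted p = 4.84e-05), and PFAS, an enzyme of purine synthesis, had 23.8 and 22.9 FPKM in controls and 15.8 to 16.6 in knockdown libraries (-0.53 ± 0.039, adjusted p = 9.66e-05). With the spread shared over all 12 libraries of both sublines 8 synthetases, 13 initiation factors and 7 chaperonin genes fell.

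Genes of polyamine, methionine and amino acid supply included single genes of high level with large falls. Over all symbols 17.2% fell and 21.9% rose. The shares were 41.7% and 25% for the polyamine genes and 37.5% and 12.5% for the amino acid transporters. ODC1, the rate-limiting enzyme of polyamine synthesis and itself a known MYC target, had 199.9 and 198 FPKM in 1A and 2A, 117 and 118 in 1B and 2B and 131 and 130.003 in 1C and 2C. Its log2 fold change (-0.68 ± 0.027, adjusted p = 1.02e-05) was the lowest of all named genes above 100 FPKM. SRM, the spermidine synthase, had 142 and 137 FPKM in controls and 101 to 122 in knockdown libraries (-0.31 ± 0.041, adjusted p = 0.000746), whereas OAZ2, an antizyme that inhibits ODC1, rose (0.24 ± 0.042). Over the 12 polyamine genes 5 fell and 3 rose, with 3 lower without 1A or 2A and 1 higher without 2A or 2B. Over 17 genes of serine, glycine and one-carbon metabolism 5 fell and 3 rose (29.4% and 17.6% against 17.2% and 21.9% of all symbols), with 3 lower without 1A, 2A, 2B or 1C and 1 higher without 1A or 2A. MAT2A, which makes S-adenosylmethionine, had 110.5 and 111 FPKM in controls and 72.6 to 76.1 in knockdown libraries (-0.57 ± 0.032, adjusted p = 4.41e-05). Of 16 amino acid transporters 6 fell and 2 rose (1 rose without 2A), and among the lowered were SLC3A2 and SLC7A5, the 2 chains of the large neutral amino acid exchanger, at -0.45 ± 0.033 and -0.36 ± 0.034.

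Nuclear genes for mitochondrial proteins split by function. Of 25 import and chaperone genes 17 fell and none rose (median -0.23), including the matrix chaperone HSPD1 at 176 and 190.4 FPKM in controls and 140.04 to 159.9 in knockdown libraries (-0.30 ± 0.039, adjusted p = 0.000737) and the import channel subunit TIMM23 (-0.23 ± 0.031). Of 76 mitochondrial ribosomal proteins 38 fell and none rose (median -0.11), led by MRPL15 at 56.3 and 56.3 FPKM in controls and 40.9 to 44.7 in knockdown libraries (-0.39 ± 0.031, adjusted p = 0.000114), and 23 fell without 1A. Of 75 respiratory chain subunits, by contrast, 16 rose and 3 fell (median 0.05). Higher members numbered 7 without 1A, 10 without 2A and 10 without 1C, and lower members 1 without 1A, 2A or 1B. That list's shares of 21.3% higher and 4% lower are near or under the 21.9% and 17.2% of all symbols. Of 34 proteasome subunits 19 fell and none rose (median -0.11), with 9 lower without 1A. With the spread shared over all 12 libraries 25 mitochondrial ribosomal and 8 proteasome genes fell and 5 respiratory genes rose.

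**Figure D2:**
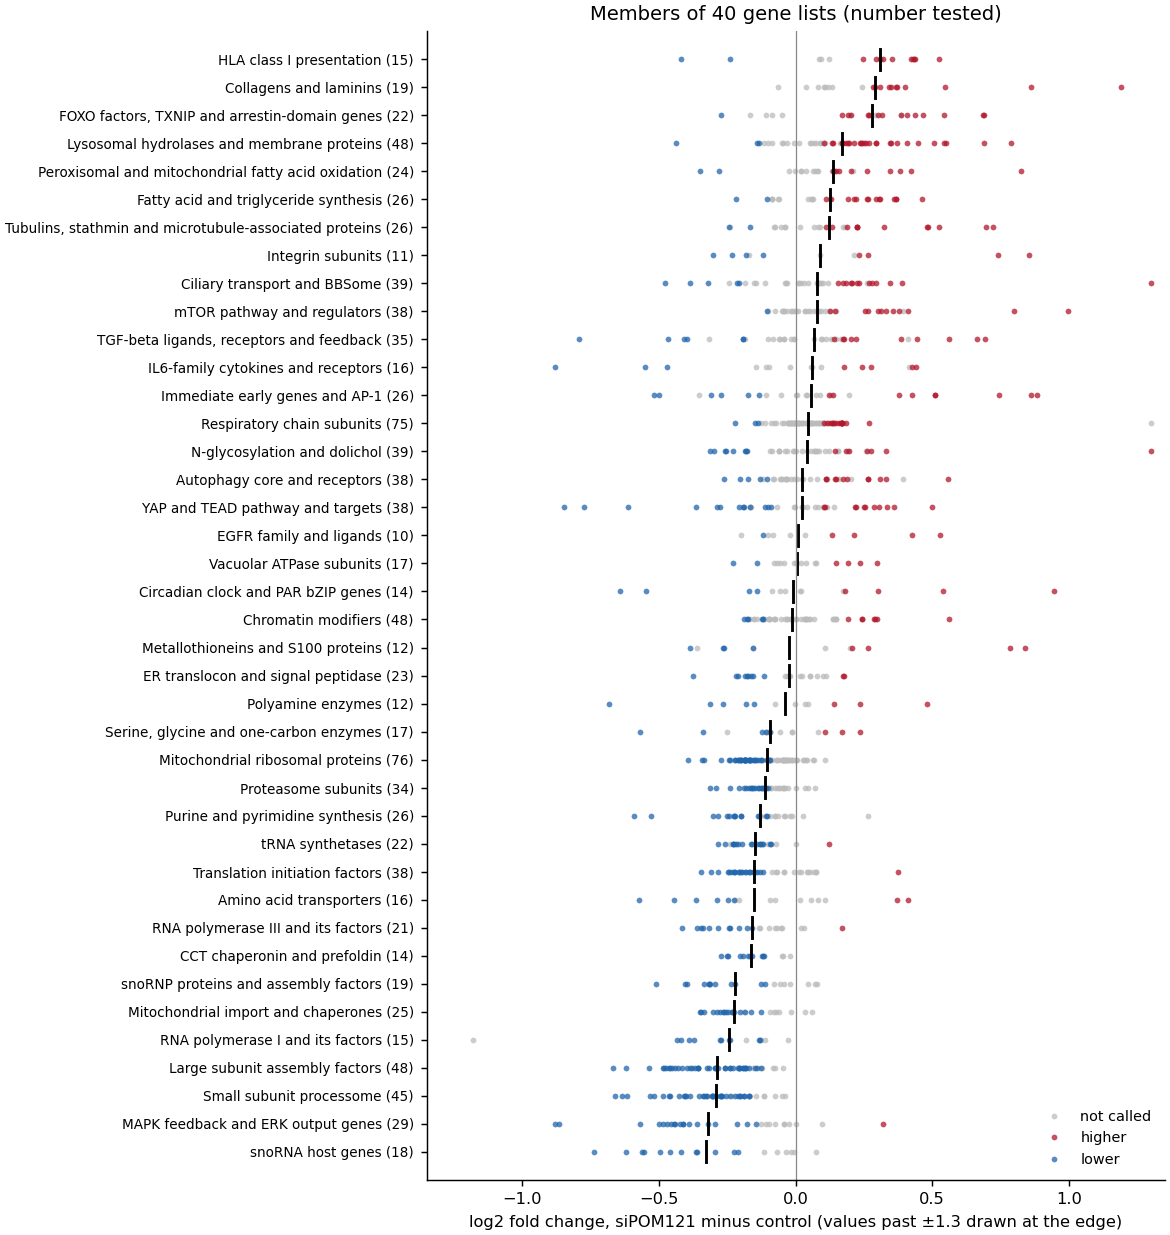
Log2 fold change (siPOM121 minus control) of every tested member of 40 gene lists, ordered by median. Red and blue points passed an adjusted p of 0.05, grey points did not, the black bar is the list's median, and 3 members beyond 1.3, each with samples listed at 0, are drawn at the edge. The medians run from -0.33 for snoRNA host genes to 0.31 for HLA class I presentation.

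Outputs of ERK signalling fell while several immediate early genes rose. ERK kinases drive a set of transcripts for feedback inhibitors, transcription factors and growth factors, and of 29 such genes tested 19 fell and 1 rose (median -0.32). IL11, a cytokine of the IL6 family, had 17.7 and 17.8 FPKM in the controls, 10.2 and 9.03 with construct 1 and 9.68 and 9.65 with construct 2 (-0.88 ± 0.054, adjusted p = 6.49e-05). FOSL1, an AP-1 subunit that is stabilised by ERK, had 102 and 102 FPKM in 1A and 2A, 68.8 and 68.4 in 1B and 2B and 75.5 and 75.7 in 1C and 2C (-0.50 ± 0.028, adjusted p = 4.41e-05). Both genes were lower in each of the 4 knockdown libraries than in either control. CCND1, encoding cyclin D1, had 88.3 and 83.3 FPKM in controls and 63.7 to 65.4 in knockdown libraries (-0.41 ± 0.034, adjusted p = 0.000136), and the nuclear ERK phosphatase gene DUSP5 had 26.9 and 26.8 FPKM in controls and 18.3 to 21.9 in knockdown libraries (-0.42 ± 0.036, adjusted p = 0.000159). The ETS factor ETV4 (-0.48 ± 0.043), the sphingosine kinase SPHK1 (-0.57 ± 0.060), the urokinase receptor PLAUR (-0.32 ± 0.031) and TMEM158 (-0.87 ± 0.085) were lower too. SPRED3 was the 1 member that rose (0.32 ± 0.073), and without 1A it did not pass.

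Among 26 immediate early and AP-1 genes 9 rose and 6 fell (34.6% and 23.1%, against 21.9% and 17.2% of all symbols). The list as a whole thus had no single direction (median 0.06, and -0.02 after quantile normalization). FOS had 2.8 and 2.95 FPKM in the controls, 5.47 and 5.91 with construct 1 and 4.59 and 4.99 with construct 2 (0.86 ± 0.068, adjusted p = 0.00012), and EGR1 had 1.94 and 1.97 FPKM in 1A and 2A, 4.05 and 3.43 in 1B and 2B and 3.34 and 3.68 in 1C and 2C (0.88 ± 0.089, adjusted p = 0.000282). JUNB and JUND, AP-1 subunits often set against JUN in growth control, rose by 0.51 ± 0.049 and 0.51 ± 0.037. JUN itself stood at 17.1 and 16 FPKM in controls and 16.2 to 16.8 in knockdown libraries, with a log2 fold change of 0.00 ± 0.043 (adjusted p = 0.996). KLF10, a TGF-beta early response gene, was lower at 41.3 and 40.7 FPKM in controls and 27.6 to 29.9 in knockdown libraries (-0.52 ± 0.035, adjusted p = 8.1e-05). Of the AP-1 subunits, FOS, JUNB and JUND were thus higher, FOSL1 was lower and JUN did not pass.

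YAP and TGF-beta pathways also held genes moving both ways. Of 38 genes of the YAP and TEAD list 13 fell and 11 rose (34.2% and 28.9%, median 0.03, and -0.005 after quantile normalization). The targets CTGF, NT5E and ANKRD1 were lower. NT5E, which encodes the adenosine-forming enzyme CD73, had 15.3 and 15.8 FPKM in the controls, 8.03 and 8.37 with construct 1 and 8.997 and 9.32 with construct 2 (-0.85 ± 0.045, adjusted p = 3.82e-05), and ANKRD1 had 72.9 and 72.5 FPKM in controls and 52 to 62.7 in knockdown libraries (-0.37 ± 0.033, adjusted p = 0.000196). FSTL1 of the same list was higher (0.34 ± 0.030). Without 1A the list's counts were 8 lower and 7 higher, without 2A they were 9 and 7, and with the spread shared over all 12 libraries they were 6 and 7. Of 35 TGF-beta genes 10 rose and 6 fell (28.6% and 17.1%, against 21.9% and 17.2% of all symbols). The inhibitory SMAD7 had 5.82 and 4.97 FPKM in controls and 2.77 to 3.44 in knockdown libraries (-0.79 ± 0.091, adjusted p = 0.000469), the repressor SKIL -0.47 ± 0.050 and the ubiquitin ligase SMURF2 -0.41 ± 0.047, all of them feedback inhibitors, whereas the latent TGF-beta binding proteins LTBP1 and LTBP4 were at 0.66 ± 0.053 and 0.44 ± 0.059. Of 16 IL6-family genes 5 rose and 3 fell (31.2% and 18.8%). The ligands IL11 and LIF fell (-0.47 ± 0.057 for LIF) while the receptor subunits IL11RA and OSMR and the transducer STAT3 rose by 0.43 ± 0.062, 0.28 ± 0.037 and 0.44 ± 0.032. Of 10 EGFR-family genes 4 rose and 1 fell, and none fell when any 1 library was left out. With all libraries 40% of that list rose and 10% fell, against 21.9% and 17.2% of all symbols. ERBB3 had 2.98 and 3.39 FPKM in controls and 4.47 to 4.7 in knockdown libraries (0.53 ± 0.070, adjusted p = 0.000831). It did not pass on the lower-numbered lane alone, and the negative regulator LRIG1 had 0.43 ± 0.056. EGFR itself, at 38 and 37 FPKM in controls and 34.6 to 36.1 in knockdown libraries, did not pass (adjusted p = 0.0909).

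The mTOR list held raised genes of opposite roles. DEPTOR, which binds and inhibits mTOR, had 8.87 and 7.94 FPKM in 1A and 2A, 18.6 and 18.1 in 1B and 2B and 14.7 and 15.9 in 1C and 2C (1.00 ± 0.057, adjusted p = 4.59e-05), and SESN3, a sestrin that restrains mTORC1, had 4.79 and 5.03 FPKM in the controls, 8.98 and 9.5 with construct 1 and 7.39 and 8.44 with construct 2 (0.80 ± 0.065, adjusted p = 0.000138). LAMTOR2, a subunit of the Ragulator complex that serves mTORC1 activation, had 71.4 and 72.3 FPKM in controls and 82 to 89.3 in knockdown libraries (0.26 ± 0.032, adjusted p = 0.000658), and the Rag GTPase RRAGD had 3.67 and 3.48 FPKM in controls and 4.31 to 4.7 in knockdown libraries (0.33 ± 0.059, adjusted p = 0.00333). These 4 genes were higher in each knockdown library than in either control. Over the 38 genes of the mTOR list 12 rose (31.6% against 21.9% of all symbols) and 1 fell (median 0.08), with 5 higher without 2A and none lower without 1A, 2B or 1C. Of 22 FOXO factors and related genes 14 rose and 1 fell (median 0.28), with 9 higher without 2A and 2 lower without 1B. They included the MYC antagonist MXD4 at 22.6 and 21.3 FPKM in controls and 27.7 to 31.9 in knockdown libraries (0.44 ± 0.044, adjusted p = 0.000283), KLF9 at 2.03 and 2.29 FPKM in controls and 3.35 to 3.56 in knockdown libraries (0.69 ± 0.079, adjusted p = 0.000465), BCL6 (0.54 ± 0.050) and the atypical cyclin CCNG2 (0.41 ± 0.052). FOXO1 (0.30 ± 0.083) and FOXO4 (0.27 ± 0.065) passed too, FOXO1 not without 1A, 2A or 2B and FOXO4 not without 2A, and FOXO3 (0.17 ± 0.055, adjusted p = 0.041) kept its call without 1B only. The cell cycle inhibitor CDKN2D had 10.3 and 9.62 FPKM in controls and 15.4 to 18.6 in knockdown libraries (0.76 ± 0.085, adjusted p = 0.000634).

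Clock genes moved both ways, with 4 of 14 higher and 4 lower (28.6% each). DBP, an output activator of the clock, had 2.88 and 2.96 FPKM in 1A and 2A, 6.39 and 6.07 in 1B and 2B and 4.84 and 5.33 in 1C and 2C (0.94 ± 0.065, adjusted p = 8.1e-05), and PER1 was higher (0.54 ± 0.069). NFIL3 was higher too, with 18.2 to 18.6 FPKM in control samples and 19.6 to 21.9 in knockdown samples. BHLHE40 was lower, at 29.2 and 27.6 FPKM in controls and 18.5 to 20.4 in knockdown libraries (-0.55 ± 0.044, adjusted p = 0.000125). So was CRY1, at 2.86 and 2.78 FPKM in controls and 1.59 to 2.07 in knockdown libraries (-0.64 ± 0.11, adjusted p = 0.00306). CRY1 lies near the floor and did not pass on the higher-numbered lane alone, and 2 members of the list were lower without 2A.

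Many lysosomal genes were higher. Of 48 hydrolases and membrane proteins of the lysosome 28 rose and 3 fell (median 0.17), or 58.3% higher against 21.9% of all symbols, 21 to 27 rose when any 1 library was left out, and 1 fell without 1A or 2A. FUCA1, the lysosomal fucosidase, had 4.12 and 4.6 FPKM in the controls, 6.65 and 6.89 with construct 1 and 7.29 and 7.3 with construct 2 (0.69 ± 0.060, adjusted p = 0.000168). GAA, the acid alpha-glucosidase that breaks down glycogen, had 25.3 and 22.8 FPKM in 1A and 2A, 36.8 and 34 in 1B and 2B and 33.5 and 32.4 in 1C and 2C (0.51 ± 0.052, adjusted p = 0.00029). LIPA, the acid lipase, had 26.9 and 29.2 FPKM in controls and 36.6 to 37.8 in knockdown libraries (0.41 ± 0.041, adjusted p = 0.000269), and the cholesterol carrier NPC2 had 47.9 and 47.8 FPKM in controls and 59.1 to 63.6 in knockdown libraries (0.35 ± 0.034, adjusted p = 0.000248). The most abundant, PSAP, the saposin precursor, had 458 and 442 FPKM in controls and 532 to 546 in knockdown libraries (0.26 ± 0.030, adjusted p = 0.000475). CTSL, the cathepsin L gene, went the other way at 195 and 193 FPKM in controls and 132 to 153 in knockdown libraries (-0.44 ± 0.039, adjusted p = 0.000175). Vacuolar ATPase subunits, which acidify the lysosome, had 4 of 17 higher and 2 lower (23.5% and 11.8%), with none lower without 2A. Autophagy genes had 11 of 38 higher and 5 lower (28.9% and 13.2%), with 5 higher without 1A or 2A and 7 without 1B, and with 1 lower without 1A and 3 without 2A, 1B or 1C. The shares of raised subunits and autophagy genes stand beside 21.9%, and those of lowered ones beside 17.2%, over all symbols. The receptor genes OPTN and SQSTM1 had opposite signs (0.33 ± 0.033 and -0.26 ± 0.030).

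TCACGTGA, an extended palindrome within the element bound by TFEB and related factors at lysosomal genes, was in 5 of 32 lysosomal promoters matched (15.6%), against 1.82% of all promoters, and CACGTG was in 10 of 32 (31.2%) against 9.16%. Of the 10 genes with CACGTG 4 rose, and of the 22 without it 15 rose. GAA is shown as the raised member with TCACGTGA of smallest p, with both copies in capitals, at 77 and 32 bases before the start:
GAA (chr17:80101331-80101580, plus strand): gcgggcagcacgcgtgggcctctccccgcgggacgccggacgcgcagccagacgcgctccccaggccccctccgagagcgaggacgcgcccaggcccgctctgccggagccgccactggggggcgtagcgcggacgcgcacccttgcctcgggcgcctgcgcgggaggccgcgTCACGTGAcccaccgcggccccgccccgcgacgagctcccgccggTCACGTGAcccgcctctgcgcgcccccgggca
LAMP1, GALNS and MCOLN1 hold the same letters and did not pass the threshold (log2 fold changes 0.075, 0.012 and -0.11), and CTSA rose by 0.14 ± 0.035, a call lost without 2A.

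Lipid metabolism genes rose in part. Of 26 genes of fatty acid and triglyceride synthesis 14 rose and 2 fell (median 0.13), including the desaturases SCD at 62.5 and 63 FPKM in controls and 69.9 to 79.8 in knockdown libraries (0.26 ± 0.033, adjusted p = 0.000672) and SCD5 (0.31 ± 0.045), the elongase ELOVL6 (0.26 ± 0.033) and DGAT2, which makes triglyceride (0.36 ± 0.043). Of 24 genes of fatty acid oxidation 10 rose and 2 fell (median 0.14). PPARA, the receptor that switches on oxidation genes, had 1.73 and 1.82 FPKM in controls and 3.01 to 3.22 in knockdown libraries (0.83 ± 0.076, adjusted p = 0.000195), and catalase, encoded by CAT, had 14.7 and 14.5 FPKM in controls and 18.8 to 20.3 in knockdown libraries (0.42 ± 0.042, adjusted p = 0.000261). CPT1A, which admits long-chain fatty acids to mitochondria, was lower (-0.35 ± 0.052). Without 2A 9 synthesis genes and 3 oxidation genes rose, and at most 1 synthesis gene fell when any 1 library was left out.

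Several abundant chaperones were among the genes named for their change, in both directions. Among symbols past the threshold with a mean above 100 FPKM the largest rise was that of MANF, a secreted protein of the endoplasmic reticulum, with 133 and 136 FPKM in the controls, 204 and 202 with construct 1 and 217 and 199 with construct 2 (0.61 ± 0.039, adjusted p = 6.6e-05). HSPA5, the BiP chaperone, had 471 and 477 FPKM in 1A and 2A, 654 and 608 in 1B and 2B and 639 and 617 in 1C and 2C (0.41 ± 0.037, adjusted p = 0.000191), and CALR, calreticulin, had 627 and 615 FPKM in controls and 831 to 864 in knockdown libraries (0.44 ± 0.030, adjusted p = 8.1e-05). HSP90B1 (0.41 ± 0.030), PDIA4 (0.43 ± 0.031), PDIA6 (0.26 ± 0.028) and P4HB (0.23 ± 0.031), chaperones and disulfide isomerases of the same compartment, rose too, HSP90B1 losing its call with the spread shared over all 12 libraries. Of cytosolic chaperones, HSPA8 had 632 and 639.9 FPKM in controls and 486 to 509 in knockdown libraries (-0.35 ± 0.028, adjusted p = 0.000122), and HSPB1, a small heat shock protein, had 164 and 180.3 FPKM in controls and 212 to 224 in knockdown libraries (0.35 ± 0.041, adjusted p = 0.0005). The 57 tested symbols beginning with HSPA, HSPB, HSPD, HSPE, HSPH or DNAJ were grouped after their values were seen. Of these 11 rose and 16 fell (19.3% and 28.1%, against 21.9% and 17.2% of all symbols). They include HSPA5, HSPA8 and HSPB1 but not HSP90B1 and its family. Of 23 translocon and signal peptidase genes, which bring proteins into the endoplasmic reticulum, 9 fell and 2 rose (39.1% and 8.7%). Of 39 N-glycosylation genes 8 fell and 7 rose (20.5% and 17.9%, near the 17.2% and 21.9% of all symbols), 1 of the raised being DOLK, which was listed at 0 in the controls. SRPRB, a receptor subunit for the signal recognition particle, had 22 and 20.8 FPKM in controls and 14.5 to 19.1 in knockdown libraries (-0.38 ± 0.049, adjusted p = 0.000739). Without 1A 5 members of each of these 2 lists were lower.

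HLA class I genes rose, with 10 of 15 presentation genes higher and 2 lower (median 0.31, the highest of the 40 lists). HLA-C had 46.3 and 42.9 FPKM in the controls, 60.2 and 59.6 with construct 1 and 60.9 and 59.4 with construct 2 (0.43 ± 0.038, adjusted p = 0.000177), and HLA-B had 25 and 23.4 FPKM in controls and 29.8 to 35.5 in knockdown libraries (0.43 ± 0.070, adjusted p = 0.00282). B2M, the light chain, had 593 and 613 FPKM in controls and 698 to 727 in knockdown libraries (0.25 ± 0.030, adjusted p = 0.000583). TAPBP, which loads peptide, rose (0.42 ± 0.042), as did TAP1 (0.31 ± 0.063, lost without 2A), while TAP2 (-0.24 ± 0.075) and the immunoproteasome subunit PSMB10 (-0.42 ± 0.047) fell. TAP2 lost its call without 1A, 1B, 2B, 1C or 2C. HLA genes are polymorphic and similar to each other, so their levels on 1 reference are uncertain. The count of higher members was 8 without 2A and 10 without any other single library, and 6 of the 9 members left when only symbols of at least 5 FPKM were tested.

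**Figure D3:**
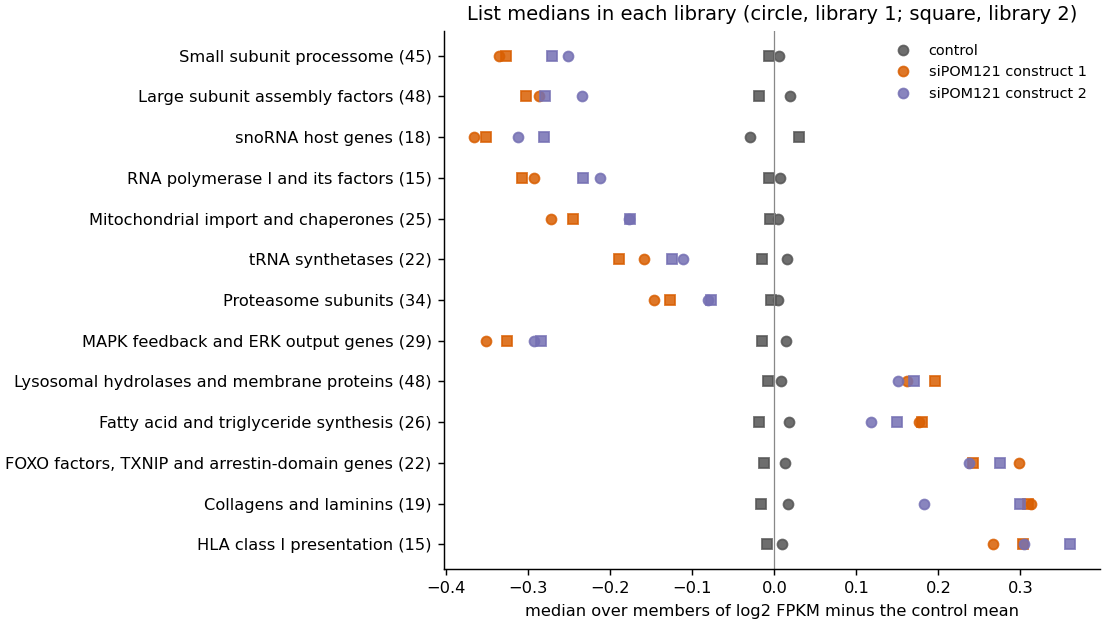
Median over list members of log2 FPKM minus the mean of the 2 control libraries, for each of the 6 libraries and 13 gene lists (members tested in brackets). The 4 knockdown libraries lie from -0.34 to -0.25 for the small subunit processome and from 0.27 to 0.36 for HLA class I, and the controls within 0.03 of 0 on every list drawn.

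Genes of the cell surface and matrix moved in several directions. Of 19 collagens and laminins above the filter 11 rose and none fell (median 0.29). COL6A1 had 14.7 and 13.2 FPKM in 1A and 2A, 21.7 and 19.7 in 1B and 2B and 20.4 and 19.6 in 1C and 2C (0.55 ± 0.058, adjusted p = 0.000332), and the laminin chains LAMB2 and LAMB1 rose by 0.35 ± 0.037 and 0.31 ± 0.039. COL1A1, at 1.04 and 1.09 FPKM in controls and 2.18 to 2.93 in knockdown libraries, lies at the floor in controls, so its log2 fold change (1.19 ± 0.10, adjusted p = 0.000159) is limited by truncation. Of 11 integrin subunits 4 rose and 4 fell, and 1 fell without 1A and 2 without 2A. With all libraries the integrin shares were 36.4% each, beside 21.9% higher and 17.2% lower over all symbols. ITGB4, the hemidesmosome subunit, had 2.68 and 2.45 FPKM in controls and 4.14 to 5.02 in knockdown libraries (0.85 ± 0.068, adjusted p = 0.000123), and ITGA5 and ITGAV rose by 0.27 ± 0.046 and 0.23 ± 0.034. Of the intermediate filament genes VIM had 569 and 553 FPKM in controls and 444 to 499.6 in knockdown libraries (-0.24 ± 0.030, adjusted p = 0.000599) and KRT18 81.4 and 76.2 FPKM in controls and 68 to 69.9 in knockdown libraries (-0.19 ± 0.035, adjusted p = 0.0039). KRT18 did not pass with the spread shared over all 12 libraries. KRT8, also a filament gene, was higher (log2 fold change 0.25, adjusted p = 0.00471). It had 35.1 to 38.3 FPKM in control samples and 41.6 to 47.1 in knockdown samples. The summed level of the DU145 epithelial markers, of which VIM is the most abundant, was 865 to 890 FPKM in control and 734 to 798 in knockdown samples. KRT8, CAV1 and ITGB4 of these markers were higher, VIM, KRT18 and CD44 lower, and EPCAM, EGFR and LAMB3 did not pass. CD44 was lower (-0.29 ± 0.032), and CD24 had 4.17 and 4.27 FPKM in controls and 7.8 to 8.56 in knockdown libraries (0.94 ± 0.051, adjusted p = 4.41e-05), so these 2 surface glycoproteins moved in opposite directions.

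Cytoskeletal, metal-binding, chromatin and ciliary genes held members that rose and members that fell. Of 26 tubulins and microtubule-associated genes 12 rose and 2 fell (46.2% and 7.69%, median 0.12), and none fell without 1A, 2B or 2C and 1 without 2A or 1C. The raised genes included TUBB4A at 15 and 14.3 FPKM in controls and 20.4 to 21.9 in knockdown libraries (0.52 ± 0.046, adjusted p = 0.000164), MAP2 (0.70 ± 0.061), MAPT (0.48 ± 0.060) and the microtubule destabiliser STMN1 at 188 and 202 FPKM in controls and 241 to 245 in knockdown libraries (0.32 ± 0.035, adjusted p = 0.000376). Of 12 metallothioneins and S100 genes 4 rose and 4 fell (33.3% each, against 21.9% and 17.2% of all symbols). S100A6 was at 0.20 ± 0.031 (lost with the spread of all 12 libraries). MT2A had 278 and 316 FPKM in controls and 194 to 243 in knockdown libraries (-0.39 ± 0.091, adjusted p = 0.022). MT2A lost its call without 2A, 1C or 2C, and 1 gene of the list fell without 1A, none without 2A and 2 without 1C. Of 48 chromatin modifiers 36 did not pass, and HDAC5 was highest at 6.96 and 7.15 FPKM in controls and 9.9 to 11 in knockdown libraries (0.56 ± 0.044, adjusted p = 0.000118). Of 39 ciliary genes 13 rose, 1 of them IFT80, with samples listed at 0, and 5 fell (33.3% and 12.8%), with 5 higher without 2A and 2 and 3 lower without 1A and 2A. The shares of the chromatin list, 14.6% higher and 10.4% lower, lie under those of all symbols, and 9 members were lower after quantile normalization, 10 after median centring and none without 1A.

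Several of the largest single changes fall outside these lists. MARCH4, a membrane ubiquitin ligase, had 14.9 and 13.5 FPKM in the controls, 7.18 and 6.34 with construct 1 and 8.4 and 7.66 with construct 2 (-0.95 ± 0.071, adjusted p = 9.9e-05), the lowest fold change of any symbol with a mean of at least 5 FPKM that the naming rule admits. PPP1R15A, the stress-induced phosphatase subunit GADD34, had 42.4 and 37.9 FPKM in controls and 23.2 to 26.4 in knockdown libraries (-0.68 ± 0.061, adjusted p = 0.000205). TNFRSF12A and TGM2, a TNF receptor and a transglutaminase, were not among the ranked fold changes and were added after their values were seen. TNFRSF12A had 126 and 129 FPKM in controls and 84.4 to 89.5 in knockdown libraries (-0.55 ± 0.028, adjusted p = 3.57e-05). TGM2 had 118 and 109.8 FPKM in controls and 76.5 to 82.7 in knockdown libraries (-0.53 ± 0.040, adjusted p = 9.9e-05). SERPINB8, the tRNA methyltransferase subunit TRMT61A, DPH2 of diphthamide synthesis, the transcription factor FOXD1 and ATAD3B lay between -0.69 and -0.61. FXYD6, which modulates the sodium pump, had 4.49 and 5.28 FPKM in 1A and 2A, 10.7 and 10.2 in 1B and 2B and 9.14 and 9.81 in 1C and 2C (1.03 ± 0.071, adjusted p = 8.73e-05), and PC, pyruvate carboxylase, had 3.45 and 3.25 FPKM in the controls, 7.09 and 7.34 with construct 1 and 5.88 and 6.69 with construct 2 (1.01 ± 0.068, adjusted p = 8.1e-05). CEBPD, a stress-responsive transcription factor, had 31.9 and 31.6 FPKM in controls and 52.8 to 62.3 in knockdown libraries (0.82 ± 0.063, adjusted p = 0.000151). The NADPH oxidase subunit CYBA (0.87 ± 0.10), the sterol reductase TM7SF2 (0.86 ± 0.048), SYNPO (0.80 ± 0.039), the tetraspanin CD82 (0.77 ± 0.077) and the steroid-converting AKR1C3 at 28 and 28.5 FPKM in controls and 44.6 to 50.8 in knockdown libraries (0.75 ± 0.038, adjusted p = 3.27e-05) were higher. For each of these genes the 4 knockdown libraries lay beyond both controls in the direction given.

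**Figure D4:**
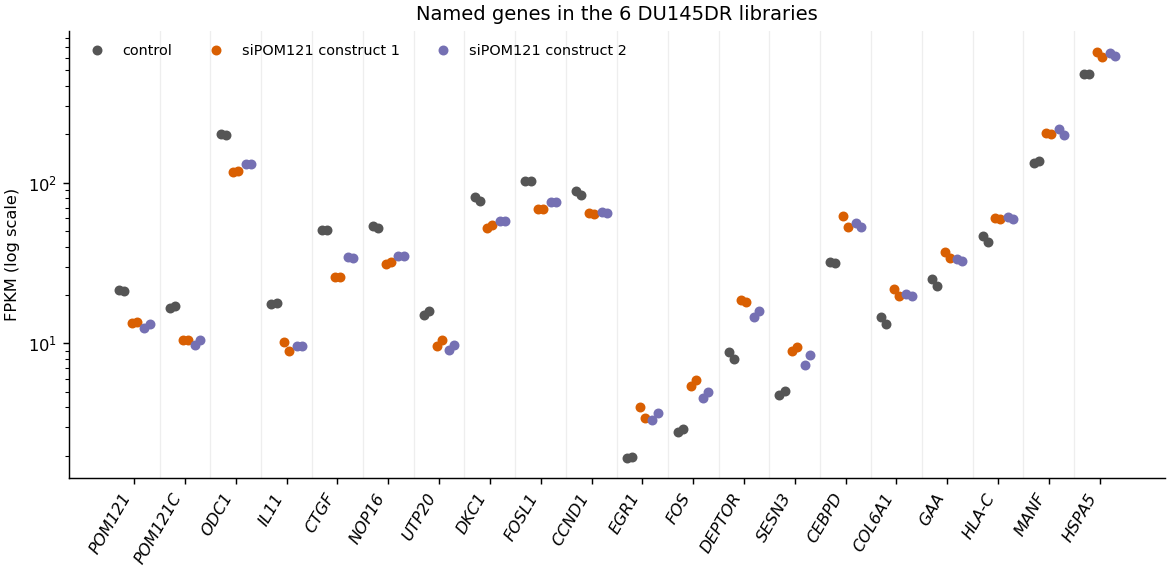
FPKM (log axis) of 20 named genes in each of the 6 libraries, with 2 points per group: control (grey), construct 1 (orange) and construct 2 (purple). POM121 lies at 21.6 and 21.3 in controls and 12.5 to 13.5 in knockdown libraries, and in every gene drawn the 4 knockdown points lie on one side of both controls.

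Almost no difference between the constructs passed the test. At an adjusted p under 0.05, 1 of 12065 symbols differed between them (0.00829%), CTGF, a secreted matrix protein and YAP target, with 1115 at an unadjusted p under 0.05. CTGF had 50.7 and 51.1 FPKM in 1A and 2A, 25.9 and 25.9 in 1B and 2B and 34.7 and 33.9 in 1C and 2C. Against control it fell by 0.77 on the log2 scale over both constructs (± 0.031, adjusted p = 1.02e-05), and construct 2 lay 0.41 above construct 1 (95% interval 0.32 to 0.49, adjusted p = 0.0327). With the spread shared over all 12 libraries of both sublines that adjusted p was 0.568. For a typical symbol the 95% interval of the difference between constructs, not adjusted for the number of symbols, reached 0.14 to either side. The adjusted threshold is stricter, so differences larger than 0.14 could also go undetected. The list medians with constructs 1 and 2 were -0.33 and -0.25 for the processome and -0.15 and -0.070 for mitochondrial ribosomal proteins, and these differences were not tested.

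Some symbols were listed at 0 in all samples of 1 side. In all 4 control samples 34 symbols were listed at 0 while all 8 knockdown samples were above the floor, and 2 showed the reverse. DOLK, the dolichol kinase, was listed at 0 in the controls and at 18.2 to 19.6 FPKM in the 8 knockdown samples. GGCX, the vitamin K-dependent carboxylase, was listed at 0 and at 4.62 to 5.19. Such a jump can be an estimate that was not made, since 158 symbols have a sample at 0 beside another of at least 8 FPKM, and no fold change is given. The other 32 reached at most 2.85 FPKM in any sample, among them BAIAP3, SEPT4, SAMD14, SULT2B1, ENTPD8, TMEM151A, TJP3, C10orf10, CCT6B, EPHB3, RGMA, SEMA7A, C1QTNF2, TMEM229B, RBM47, USH1G, PLEKHA7, LGI3, MUC3A, AKR1C2, LINC00086, ADCY5, IFIT1, CCDC69, P2RY2, SLC2A10, RGL1, KIAA1462, MME and IGSF9B. HKDC1 and LOC100289019, at 1.08 to 1.28 and 1.09 to 1.3 FPKM in the control samples, were the 2 listed at 0 in all knockdown samples.

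ABCB1 and several of its neighbours on chromosome 7 were higher. ABCB1 encodes P-glycoprotein, the efflux pump that exports docetaxel, and it had 675 and 688 FPKM in the controls, 763 and 806 with construct 1 and 796 and 775 with construct 2 (0.20 ± 0.033, adjusted p = 0.00213). Over the 13 genes within 1 Mb on either side that the table holds, in the gene order of RefSeq on GRCh38.p14, 11 were tested, 7 rose and none fell (median 0.20). Each of these numbers counts ABCB1 itself. Over all symbols 21.9% rose and 17.2% fell. TP53TG1, a long noncoding RNA, had 179 and 177 FPKM in 1A and 2A, 274 and 258 in 1B and 2B and 251 and 259 in 1C and 2C (0.55 ± 0.034, adjusted p = 6.6e-05), CROT, a peroxisomal carnitine transferase, 105 and 106 FPKM in controls and 137 to 143 in knockdown libraries (0.41 ± 0.030, adjusted p = 9.66e-05), DMTF1 157 and 156 FPKM in controls and 182 to 219 in knockdown libraries (0.35 ± 0.061, adjusted p = 0.00373) and ADAM22 33.5 and 32.3 FPKM in controls and 41.2 to 45.8 in knockdown libraries (0.44 ± 0.045, adjusted p = 0.000292). SLC25A40 and ABCB4 rose by 0.21 ± 0.047 and 0.19 ± 0.049, SLC25A40 losing its call without 2A, ABCB4 without 1A or 2A and DMTF1 on the higher-numbered lane alone. Other neighbours did not pass: TMEM243, the most abundant, had 1089 and 1138 FPKM in controls and 1072 to 1193 in knockdown libraries (adjusted p = 0.877), and DBF4 239 and 253 FPKM in controls and 256 to 269 in knockdown libraries (adjusted p = 0.0567). The group was chosen after its values were seen. With the spread shared over both sublines ABCB1 did not pass (adjusted p = 0.0595).

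**Figure D5:**
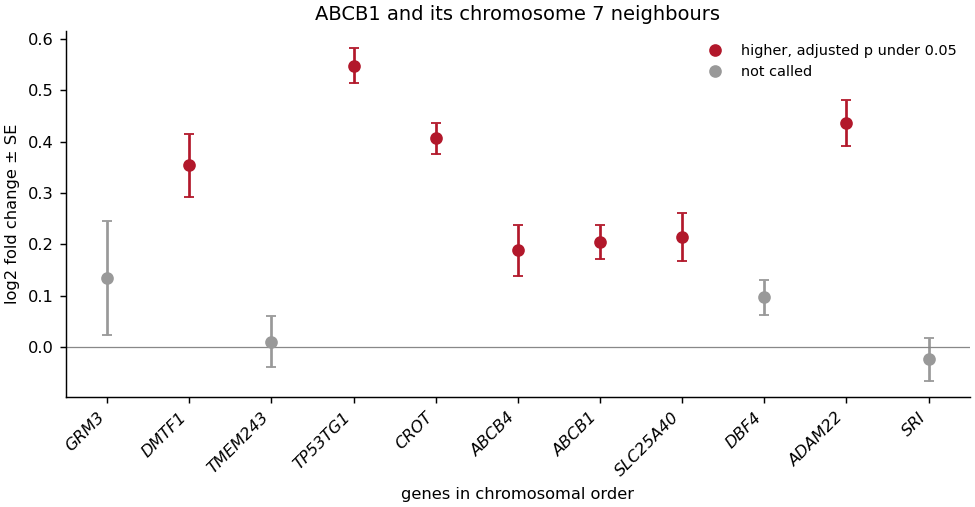
Log2 fold change (siPOM121 minus control) with its standard error for the 11 tested genes within 1 Mb of ABCB1, in chromosomal order. Red points passed an adjusted p of 0.05: DMTF1, TP53TG1, CROT, ABCB4, ABCB1, SLC25A40 and ADAM22, from 0.19 to 0.55, with TMEM243 at 0.011 between them.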

How the data were processed

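The authors deposited log2 FPKM values per gene symbol, with values of at most 1 FPKM set to 0. Per the labels' protocols, RNA was extracted with RNeasy columns, selected for poly(A) and made into unstranded TruSeq libraries. TopHat, Cufflinks and the builds hg19 and mm10 are named, without versions or roles, in the submitters' processing notes. The authors' text gives no log base. All values above 0 in the 24 samples of the series printed to 6 digits when read as powers of 2, and 3.97% when read as powers of e. Base 2 was therefore used. Read depth is not given in the sources used here, so no counting interval could be set.

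Values of the 2 lanes of a library were averaged on the log2 scale. For the 605 of 25277 symbols on more than 1 line, only the line of highest mean entered. The 12065 symbols above the floor on both lanes in at least 2 of the 6 libraries were tested with no pseudocount beyond the deposited 0. limma 3.58.1 (R 4.3.3) was fitted to the 6 DU145DR libraries with a trended, robust prior (3 residual degrees of freedom), with Benjamini-Hochberg adjustment across the 12065 symbols and a threshold of 0.05. The fit was also run on simulated data with independent normal spread and few changed symbols. Those settings differ from the data here, so that run does not bear on the calls above. Errors in the text are standard errors of log2 fold changes (siPOM121 minus control), and group FPKM values are geometric means of the lanes. Python 3.11.15 was used for tables.

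The comparison, its 40 gene lists (1134 of 1265 entries tested) and its named genes were chosen with earlier results of these data known, so the lists are described by counts and medians with no test of their own. Genes named are the 25 highest and 25 lowest fold changes among called symbols of at least 5 FPKM with groups that do not overlap, the 15 highest and 15 lowest of at least 100 FPKM, and in each list at most 5 members, by p, from which the text takes a part. The genes around ABCB1 and some further genes, in the lists or outside them, were added after their values were seen. Among them are FOXO1, FOXO3, FOXO4, SPRED3, CTSA, CD44, GAA, PSAP, JUN, EGFR, TAP1 and TAP2. Others are EGR1, HLA-B, ETV4, SPHK1, PLAUR, IMP4, PDIA6, P4HB, COL1A1, VIM, KRT18, TNFRSF12A and TGM2. The library numbers 1 and 2 are not stated to pair samples. The other subline of the series was not analysed here, except in an alternative that shares its spread. Some genes of the table are not reported here.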

Additional observations from a re-analysis of the deposited data

Results flagged for a closer look

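CTGF was the 1 symbol at which the constructs differed from each other, by 0.4053 on the log2 scale (standard error 0.036, construct 2 minus construct 1). It lay at 50.7 and 51.1 FPKM in the controls, 25.9 and 25.9 with construct 1 and 34.7 and 33.9 with construct 2, so it was lower than control with both. limma's adjusted p of 0.0327 rose to 0.568 with the spread of all 12 libraries, 0.110 on the higher-numbered lane and 0.226 without trend. It ranged from 0.0297 without library 2C to 0.112 without library 1C, and was above 0.05 when any library other than 2C was left out.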

How the results depend on the processing

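Of 302 genes given a fold change 295 passed the threshold, 242 of these under all 19 alternatives and 266 without any 1 library. When each library was left out in turn, symbols past the threshold numbered 2959 to 4194 in all (4722 with all libraries), 1634 to 2377 higher, 1124 to 1831 lower, 2456 to 4072 for construct 1, 2150 to 3390 for construct 2 and 0 to 21 between constructs, where 21 were found without 2C. Leaving out a library leaves its group with 1, which is assumed to vary like the others. With the spread of all 12 libraries of both sublines 1345 symbols were lower, 2377 passed for construct 2 and 2 between constructs. On the lower-numbered lane 2707 passed for construct 1 and 2379 for construct 2, and on the higher-numbered lane 2734 and 2273, with 1373 lower and 2 between constructs. Between constructs there were also 3 with a pseudocount of 0.5 FPKM, 0 with 1 FPKM, 6 with no filter, 2 with median centring and 0 without trend. Of the called symbols 56.1% were higher, and 49.7% after quantile normalization, which moved the median of all symbols by -0.012. NBPF9, one of a family of near-identical genes, reversed to -0.1245 on the lower-numbered lane and to -1.4374 with the first line of repeated symbols. With the library number as a replicate block 5051 symbols passed and 0 between constructs. Deviations of same-numbered libraries had correlations of 0.22, 0.014 and 0.092 across 11386 symbols. The cause of these changes was not tested. Values at or under 1 FPKM are truncated, which limits fold changes near the floor.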

Other observations

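Gene families grouped by symbol after their values were seen add to the description, with no test. Over all symbols 21.9% rose and 17.2% fell. Of 51 DDX and DHX helicases, which unwind RNA in splicing and ribosome assembly, 32 fell and 1 rose (62.7% and 1.96%, median log2 fold change -0.16). Of 11 semaphorins, guidance ligands at the cell surface, 8 rose and 1 fell (72.7% and 9.09%, median 0.39). Of 14 glutathione S-transferases 8 rose (57.1%) and 1 fell, of 8 aldo-keto reductases 6 rose (75%) and 1 fell, and of 13 aldehyde dehydrogenases 7 rose (53.8%) and none fell (medians 0.24, 0.31 and 0.20). Among the raised, SEMA7A and AKR1C2 were listed at 0 in all control samples. ALDH6A1, which rose, and AKR1B10, which fell, also have samples listed at 0. Of 19 tetraspanins 11 rose and 1 fell (57.9% and 5.26%), and TSPAN7 of the raised has a sample listed at 0. Of 60 symbols that begin with RAB and a digit 20 rose and 3 fell (33.3% and 5%, against 21.9% and 17.2% of all symbols). These 60 hold RAB GTPases together with some of their interacting proteins and the antisense RNA RAB30-AS1. Of 206 solute carriers 61 rose and 31 fell (29.6% and 15%, against 21.9% and 17.2% of all symbols). Of 401 zinc finger genes of the ZNF series 28 rose and 44 fell, below the shares of all symbols in both directions.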
